A study of Arabidopsis thaliana with 20 samples.

Results

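The response of Arabidopsis seedlings to 1 h of warmth just after dusk was read from 8 of the 20 RNA-Seq libraries of the study, the 4 labelled PM heat and the 4 labelled PM control. They were chosen by their labels alone, and libraries with the same replicate number were treated as a pair. All seedlings were wild type, genotype Columbia-0 (Col-0), 14 days old and grown on half-strength Murashige-Skoog agar at 23 °C in days of equal light and dark. PM heat seedlings were moved to 30 °C for 1 h from ZT 12.5, where ZT counts hours from lights on, so that the treatment ran in darkness from 0.5 h after lights off. PM control seedlings were mock treated over the same hour at 23 °C. The other 12 libraries are 4 AM control and 4 AM heat libraries, treated in the same way from ZT 0.5, and 4 single libraries from seedlings moved to constant light (LL) before a control or heat treatment at subjective dawn or dusk. They are used only to set the evening values beside those of the morning and of constant light.

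Warmth loosens the folding of proteins, and plant cells answer through heat shock factors (HSFs), which bind inverted repeats of GAA in promoters, called heat shock elements, and switch on chaperones. Small heat shock proteins hold unfolded proteins, HSP70 and HSP90 with their co-chaperones refold or mature them, and HSP101 pulls aggregates apart. The circadian clock is a second layer that warmth reaches. Around dusk the evening complex of ELF3, ELF4 and LUX represses morning and growth genes, among them pseudo-response regulators and PIF4, and its hold is known to weaken in the warm.

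The 8 evening libraries held between 14637914 and 38812441 counted reads, with the PM heat library of replicate 1 the deepest. TMM factors, which rescale the totals for differences in composition, were 1.02 to 1.15 in the controls and 0.871 to 0.964 after heat, so that the scaling itself separated the groups. Deviations from the group means ran together within replicates 1 and 2 and within replicates 3 and 4, and what these numbers stand for is not given in the labels. The labels call the organ whole plant tissue, whereas the protocol describes aerial tissue. The leaf mesophyll markers RBCS1A, RCA and CAB2 (LHCB1.1) were all abundant, RBCS1A at 13005 to 20384 CPM, while 5 root markers were present at low levels. Their summed level was 40.0, 21.3, 25.8 and 19.7 CPM in PM controls 1 to 4 and 18.8, 19.8, 4.95 and 12.3 CPM in PM heat libraries 1 to 4. CPM are counts over the TMM-scaled library total, times 1e6. All 5 root markers were lower after heat in the fit, with a median log2 fold change of -0.95, and 1 of them passed the test, SHV2 (COBL9), a root hair gene. No flower marker reached the count filter. The root marker level thus moved with the treatment, and its part in the decreases described further on was not tested.

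The test asked which transcripts changed between PM heat and PM control. A gene was called at an adjusted p under 0.05 (edgeR's quasi-likelihood test with the replicate number as a block and Benjamini-Hochberg adjustment over 21404 genes) and an absolute log2 fold change over 0.5. Of the 21404 genes, 3327 were called (15.5%), with 1564 higher after heat (7.31%) and 1763 lower (8.24%). The median absolute log2 fold change was 0.823 among the genes called higher and 1.12 among those called lower. Changes of more than 3 on this scale numbered 77 upward and 72 downward. Among called genes averaging 5 CPM or more and moving alike in all 4 pairs, the 15 largest increases ran from 4.53 to 6.43 and the 15 largest decreases from -2.34 to -5.33. The 1564 genes took 9.06% to 12.4% of all CPM in the controls and 17.6% to 18.8% after heat, a description of the genes so chosen. The split depended on scaling: upper-quartile normalization moved the median of all genes from -0.03 to -0.16 and gave 1012 higher and 2433 lower. The number also depended on single pairs: it was 979 without replicate 1, 3458 without replicate 2, 1747 without replicate 3 and 303 without replicate 4, and with the fold limit as the null hypothesis (glmTreat) 299 genes passed. Counts for most lists below are therefore followed by the counts of the same direction without replicates 1, 2, 3 and 4 in turn. No source states that replicates were grown apart, so p-values measure the spread between these libraries. Log2 fold changes are given with a standard error from the fit, which draws on all genes for the spread. Those of the evening come from the 8 evening libraries. Those of the morning and of the differences between times come from the fit of 16 evening and morning libraries.

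Heat shock factors were among the strongest responders. HSFA2, which prolongs the heat response, stood at 3.57, 5.97, 1.92 and 5.62 CPM in PM controls 1 to 4 and at 370.4, 248, 388 and 312 CPM in PM heat libraries 1 to 4. The groups did not overlap, as for 10.9% of all genes in this direction, and the log2 fold change was 6.33 ± 0.41 (edgeR adjusted p = 0.000312). HSFB2B (AT-HSFB2B), a class B factor that lacks an activation domain, rose from 9.23, 12.4, 8.50 and 9.21 to 99.0, 85.9, 99.5 and 94.0 CPM, and its 4 heat libraries lay within a narrow band. HSFA7A started from a higher level, 28.5, 20.8, 20.2 and 27.6 CPM, and reached 81.5, 87.3, 98.3 and 92.1 CPM (log2 fold change 1.90 ± 0.16). HSFB2A rose by 2.46 ± 0.19. HSFA7B (AT-HSFA7B) rose by 4.19 ± 0.42 and HSFA3, which acts downstream of DREB2A, by 2.04 ± 0.27, both named here after their values were seen. In all, 6 of the 19 HSFs tested were called higher and none lower (median 0.47, against -0.03 over all genes), and without replicates 1 to 4 in turn 6, 7, 6 and 6 were. The class A1 factors, which are present before heat and start the response, were not called.

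Of 19 HSF promoters 3 hold a three-unit heat shock element (TTC, GAA and TTC, or GAA, TTC and GAA, each pair with any 2 bases between) within 250 bases of the annotated start. HSFA2 and HSFA7A are shown because such elements are what HSFs bind. PRR7, a clock gene from a later paragraph chosen after the search, holds one as well, while LUX (PCL1) holds none and is shown for contrast. Sequences are RefSeq TAIR10.1, 5′ to 3′ on the coding strand, and end at the base before the gene's start. Capitals mark three-unit heat shock elements, CACGTG (the G-box, bound by PIF and related factors) and AAAATATCT (the evening element, bound by clock MYB factors), with no overlap between them. HSFA2 lies at chr2:11135466-11135623 (plus strand, cut short where the neighbouring gene ends), HSFA7A at chr3:19264891-19265140 (plus), PRR7 at chr5:642031-642280 (minus) and PCL1 at chr3:17182792-17183041 (plus).
HSFA2: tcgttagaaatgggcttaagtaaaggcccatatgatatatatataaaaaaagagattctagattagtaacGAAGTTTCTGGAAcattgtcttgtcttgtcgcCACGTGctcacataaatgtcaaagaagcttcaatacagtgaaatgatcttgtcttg
HSFA7A: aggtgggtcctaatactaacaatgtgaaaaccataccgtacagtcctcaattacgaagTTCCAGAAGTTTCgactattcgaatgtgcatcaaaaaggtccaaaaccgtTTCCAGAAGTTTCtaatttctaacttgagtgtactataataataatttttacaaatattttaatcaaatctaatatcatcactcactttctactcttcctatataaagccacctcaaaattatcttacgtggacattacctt
PRR7: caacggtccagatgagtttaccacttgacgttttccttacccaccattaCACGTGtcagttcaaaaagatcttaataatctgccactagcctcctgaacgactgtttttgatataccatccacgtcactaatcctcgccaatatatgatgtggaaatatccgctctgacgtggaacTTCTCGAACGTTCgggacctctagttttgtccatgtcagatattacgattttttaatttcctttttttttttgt
PCL1: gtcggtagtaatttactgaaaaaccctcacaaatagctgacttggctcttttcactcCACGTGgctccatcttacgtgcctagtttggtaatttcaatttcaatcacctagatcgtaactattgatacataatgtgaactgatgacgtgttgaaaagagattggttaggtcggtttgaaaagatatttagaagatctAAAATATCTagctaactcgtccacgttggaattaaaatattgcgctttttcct
HSFA7A holds 2 three-unit elements, HSFA2 holds 1 followed by a G-box, and PRR7 holds 1 with a G-box further upstream. PCL1 holds a G-box and an evening element and no three-unit element.

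Searched on both strands from 250 bases before to 50 after the start in 21266 nuclear genes tested, a three-unit element was found in 0.555% of promoters. Its share was 2.24% among the genes called higher, 11.6% among those higher by more than 2 on the log2 scale and 0.341% among those called lower. The two-unit form GAANNTTC was in 11.4% of all promoters, 14.7% of those called higher and 10.7% of those called lower, with each three-unit element counted here too. CACGTG was in 8.68% of all promoters, in 12.3% of those called higher and in 6.93% of those called lower, and AAAATATCT in 2.92%, 3.58% and 3.24%. With the 250 bases before the start alone, the share of three-unit elements was 1.22% among genes called higher, 6.1% among those higher by more than 2 and 0.423% among all. Many strongly induced chaperone genes had no three-unit match in this window, HSP101, HSP90.1 and the FKBP co-chaperone AT5G48570 among them. That says only that these letters were absent from these bases, and the windows of HSP101 and HSP90.1 overlapped another annotated gene.

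Of 19 small heat shock proteins tested, 14 were called higher and none lower (median log2 fold change 3.72; 14, 14, 15 and 10 without replicates 1 to 4 in turn). The wider annotation family of HSP20-like proteins held 11 higher and 2 lower of 31, with a median of 0.07, or -0.06 with upper-quartile normalization. AT1G07400, an HSP20-like chaperone, had the largest increase of any well-measured gene, from 3.33, 8.22, 3.89 and 9.76 CPM to 593, 626, 408 and 396 CPM (log2 fold change 6.43 ± 0.38, edgeR adjusted p = 0.000224). AT1G59860 of the same family was low in every control, at 1.00, 0.750, 1.25 and 1.79 CPM, and reached 95.9, 86.1, 70.7 and 68.3 CPM. AT1G54050 rose by 4.63 ± 0.24 and HSP17.6A by 4.65 ± 0.33. HSP21, the chloroplast member, also passed but stayed low, at 1.20, 0.107, 0.358 and 0.371 CPM in the controls and 6.11, 5.61, 2.30 and 4.62 CPM after heat. Members of this family have close copies, and reads that could not be placed in 1 gene were not counted, so the division among them is uncertain.

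Several small heat shock proteins were highest among the controls in replicate 1. HSP17.4 stood at 82.5, 17.6, 5.59 and 11.8 CPM in PM controls 1 to 4 against 281, 223, 263 and 361 after heat, and the mitochondrial AT5G51440 at 90.1, 49.2, 6.75 and 16.6 against 366, 357, 426 and 326. AT1G53540 was at 84.4, 17.5, 3.89 and 6.24 CPM in the controls and 60.1, 45.6, 56.8 and 67.4 after heat, and was not called (edgeR adjusted p = 0.0894). HSP17.4 and AT1G53540 were named for these values after they were seen. Their morning responses were larger: the evening response minus the morning response (tested over the 16 diel libraries, where 1.63% of all genes were past an adjusted p of 0.05 with a negative sign) was -4.19 ± 0.74 for HSP17.4 and -6.07 ± 0.94 for AT1G53540 (edgeR adjusted p = 0.0119 and 0.00711). In the list as a whole 9 of 19 members had a smaller response in the evening and none a larger one. AT1G07400 and AT1G59860 were not among them, with differences of -0.08 ± 0.60 and -0.43 ± 0.55. Over all 21404 genes, only 4 had a smaller evening response when replicate 4 was left out.

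The large chaperones shared a direction, with 18 of 23 HSP70, HSP90 and HSP100 genes called higher and none lower (median 1.96; 16, 18, 17 and 13 without replicates 1 to 4). HSP101 rose from 11.9, 15.3, 9.30 and 14.1 to 776, 620.1, 410.2 and 366 CPM and HSP90.1, the heat-induced cytosolic HSP90, from 38.6, 32.6, 16.2 and 33.9 to 2060.1, 1636, 989 and 869 CPM. HSP70 (AT3G12580) went from 116, 78.5, 26.7 and 67.8 to 2636, 2769, 1437 and 1412 CPM, a log2 fold change of 4.94 ± 0.29. For all 3 the heat libraries of replicates 1 and 2 were above those of replicates 3 and 4, and every heat library was above every control. HSP70T-2 rose by 3.75 ± 0.17 and the organellar disaggregase CLPB4 by 3.15 ± 0.15. The constitutive HSC70-1, named here for its abundance after its value was seen, already stood at 3843, 2955, 1664 and 1989.8 CPM and rose by 1.03 ± 0.23 to 5172, 5811, 5647 and 3903 CPM. HSA32, which sustains acquired heat tolerance and was also named after its value was seen, was the member of this list with a smaller evening response (-2.54 ± 0.38, edgeR adjusted p = 0.0055), although it rose by 2.81 ± 0.30 in the evening.

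Co-chaperones followed, with 11 of 16 called higher and 1 lower (11, 10, 10 and 10 higher without replicates 1 to 4). The FKBP-type isomerase AT5G48570 (ROF2, FKBP65) rose from 19.7, 15.5, 8.05 and 19.5 to 912, 546, 449 and 417 CPM, and its relative ROF1 by 2.34 ± 0.13. BAG6, a partner of HSP70, had 10.7, 8.68, 8.05 and 10.1 CPM in the controls and 151, 141, 106 and 114 CPM after heat, the smallest p of the list (edgeR adjusted p = 8.97e-05). SGT1A, an HSP90 partner, rose by 2.90 ± 0.17, and Fes1A, which protects HSP70, by 3.42 ± 0.21. DNAJ domain proteins, the family that delivers clients to HSP70, held 22 of 118 called higher and 2 lower, with AT2G20560 rising by 4.78 ± 0.24 (12, 21, 13 and 9 higher without replicates 1 to 4).

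Few genes for folding in the endoplasmic reticulum (ER) were called in the evening. BIP2, the main HSP70 of the ER, stood at 134, 95.3, 141 and 114 CPM in the controls and 155, 157, 85.3 and 88.5 CPM after heat, a log2 fold change of -0.04 ± 0.23 (edgeR adjusted p = 0.918). In the morning its log2 fold change was 1.93 ± 0.25, and the difference between the times of day was -2.004 ± 0.35 (edgeR adjusted p = 0.0119). Of 21 genes of this list 4 were called higher in the evening and none lower (median 0.05, or -0.08 with upper-quartile normalization). In 11 the response was smaller in the evening than in the morning, as in 1.63% of all genes. Without replicate 4, only 4 of all 21404 genes had a smaller evening response. The 4 called higher were ATERDJ3A, an ER DNAJ protein that went from 3.49, 2.00, 1.07 and 1.67 to 62.2, 57.6, 37.8 and 27.5 CPM, the membrane-bound factors BZIP28 (1.36 ± 0.14) and BZIP17 (0.64 ± 0.12), and the stress sensor IRE1A (0.83 ± 0.20). Without replicates 1 to 4 the number called higher was 2, 5, 4 and 2, and 1 gene was called lower without replicate 2. TIN1, annotated as tunicamycin induced and outside the list, was among the 15 largest increases, from 2.13, 2.07, 0.581 and 1.36 to 59.6, 63.6, 40.0 and 37.4 CPM.

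**Figure D1:**
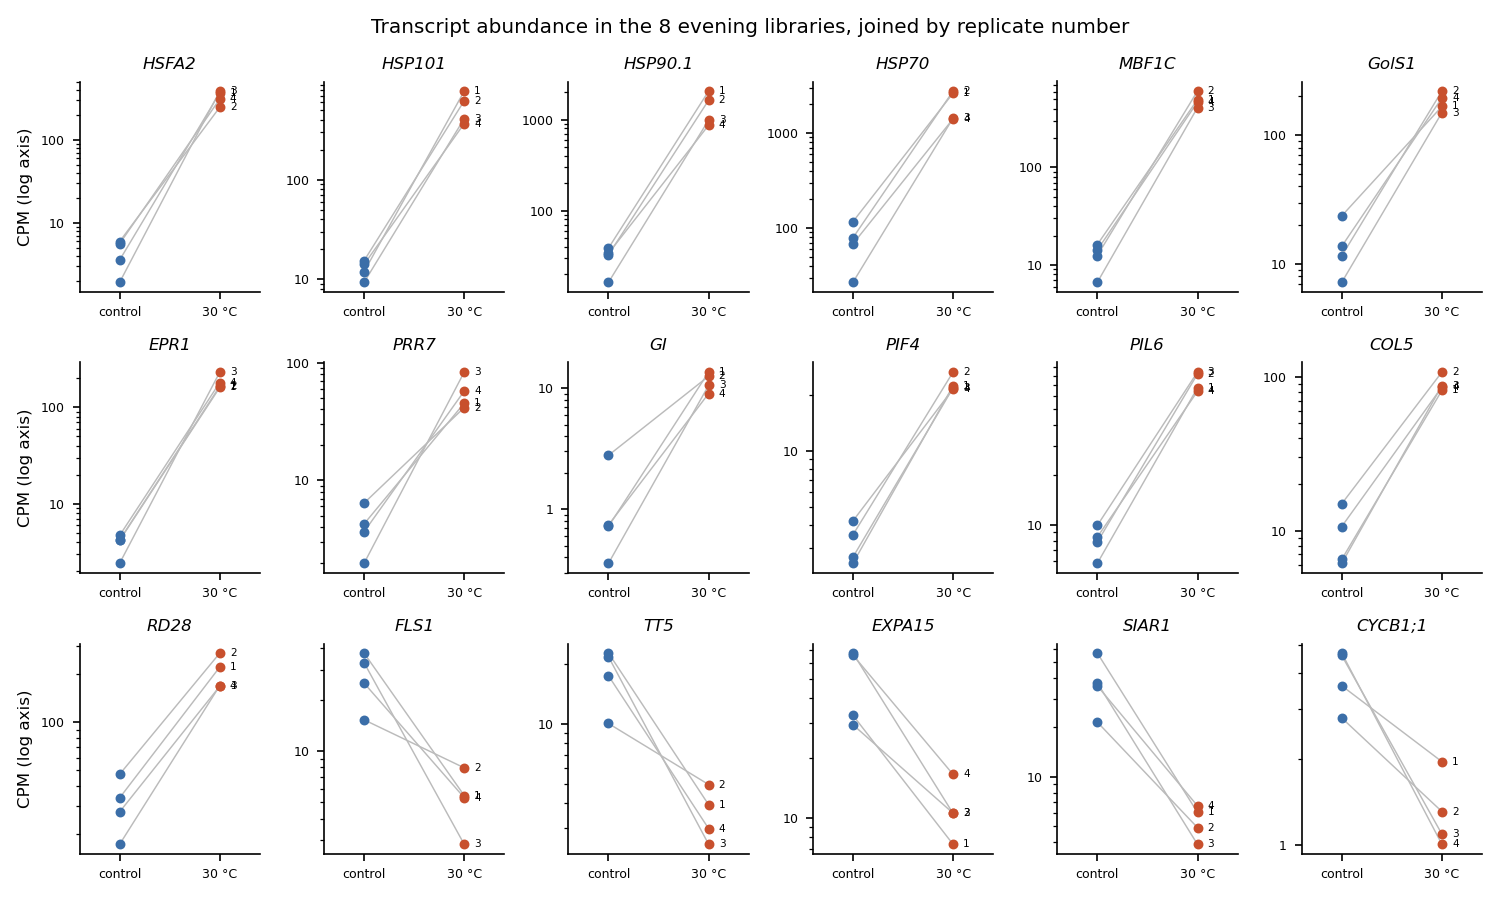
CPM on a log axis for 18 named genes in the 4 PM control (blue) and 4 PM heat (orange) libraries, with lines joining the libraries of 1 replicate number, given at the right of each panel. HSFA2 rises from 1.92 to 5.97 CPM in the controls to 248 to 388 CPM after heat, whereas FLS1 falls from 15.2 to 37.5 CPM to 2.82 to 7.95 CPM.

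Regulators and protectants outside the chaperone families rose as well. MBF1C, a transcriptional co-activator needed for heat tolerance, went from 16.2, 12.5, 6.62 and 14.2 to 497, 609, 412 and 469.8 CPM (log2 fold change 5.38 ± 0.23), with no overlap. DREB2A, a drought and heat responsive AP2 factor, rose from 15.4, 15.2, 2.77 and 4.88 to 92.7, 82.3, 69.7 and 73.4 CPM, and its controls of replicates 3 and 4 were below those of replicates 1 and 2. DREB2B and DREB2C also passed, with overlapping groups, and 4 of 8 genes of this group were called higher (2, 4, 2 and 2 without replicates 1 to 4). GolS1, which makes galactinol for raffinose synthesis, rose from 23.6, 11.5, 7.20 and 13.7 to 167, 220.2, 149.8 and 195 CPM, one of 2 galactinol and raffinose genes called higher of 7. The H2O2-removing catalases were called higher, CAT3 by 1.08 ± 0.16, CAT2 by 0.86 ± 0.21 and CAT1 by 0.55 ± 0.11, and CAT3 rose more in the evening than in the morning (1.46 ± 0.30, edgeR adjusted p = 0.0234). APX2, a heat-induced ascorbate peroxidase, was at 0.201, 0.107, 0.268 and 0.309 CPM and then 1.43, 0.948, 0.461 and 0.477 CPM, and was not called (edgeR adjusted p = 0.0596). Its morning log2 fold change was 6.36 ± 0.33, and its evening response was smaller by a difference of -4.29 ± 0.69 (edgeR adjusted p = 0.00807). Of the catalases and other antioxidant enzymes 1, 2, 4 and 0 were called higher without replicates 1 to 4, against 3 of 9 with all pairs, and 2 were called lower without replicate 2.

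Ubiquitin ligases and splicing factors included strong responders. Among 268 U-box and RING ubiquitin ligases, 36 were called higher (13.4%, against 7.31% of all genes) and 16 lower (5.97%, against 8.24%). The higher calls numbered 18, 33, 25 and 4 without replicates 1 to 4. Of these ligases AT1G26800 went from 17.3, 13.0, 5.41 and 9.21 to 142, 119.8, 181 and 187 CPM and AT1G14200 rose by 3.11 ± 0.13. Subunits of the proteasome, which degrades their targets, did not follow, with 1 of 43 called higher and none lower. Of 21 SR splicing factors and glycine-rich RNA-binding proteins, 5 were called higher (23.8%) and 1 lower (4.76%). The higher calls in that list were 4, 3, 3 and 2 without replicates 1 to 4. SR45a, an RNA-binding splicing factor, rose from 41.1, 38.5, 48.3 and 53.7 to 437, 489.7, 474 and 475 CPM. SR30 rose by 1.42 ± 0.16, less than in the morning (-0.98 ± 0.19, edgeR adjusted p = 0.0208), and SCL33 by 1.07 ± 0.13, while RSZ22a fell by 0.71 ± 0.11. Glutathione S-transferases moved both ways, with 11 of 52 called lower (21.2%, against 8.24% of all genes) and 5 higher (9.6%, against 7.31%). Without replicates 1 to 4 in turn 4, 11, 8 and 3 were lower and 3, 6, 3 and 2 higher. GSTU5 rose from 66.6, 79.4, 44.3 and 47.6 to 476, 386, 372 and 353 CPM and GSTF8 by 2.08 ± 0.17, whereas GSTU8 fell from 43.0, 19.1, 34.5 and 33.7 to 7.48, 5.54, 5.99 and 9.50 CPM.

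Several clock genes rose, among them morning-phased members that were low in the evening controls. EPR1 (RVE7), a morning-phased MYB-like factor, had the fourth largest increase of any well-measured gene, from 4.17, 4.22, 2.42 and 4.70 CPM in PM controls to 161, 165, 231 and 180.4 CPM (log2 fold change 5.58 ± 0.27, edgeR adjusted p = 0.000114). Its morning log2 fold change was 1.89 ± 0.25, and the evening response exceeded it by 3.72 ± 0.36 (edgeR adjusted p = 0.000238). RVE1, which links the clock to auxin, rose from 13.0, 12.9, 5.86 and 9.39 to 39.0, 45.5, 48.0 and 44.6 CPM, and LCL1 (RVE4) by 0.66 ± 0.15. RVE8, an activator of evening genes in the same family, fell from 2.45, 1.36, 5.86 and 6.86 to 0.784, 1.09, 0.806 and 2.07 CPM (log2 fold change -1.67 ± 0.39), a call lost without replicates 1, 3 or 4 and without the replicate block (edgeR adjusted p = 0.0561). The central repressors CCA1 and LHY were low and were not called, at 2.25, 1.68, 1.79 and 2.84 CPM before and 1.90, 1.75, 1.21 and 2.76 CPM after heat for CCA1 and with a log2 fold change of -1.27 ± 0.42 for LHY (edgeR adjusted p = 0.0718). The number of morning-phased genes called higher was 3 of 10, and 2, 2, 2 and 2 without replicates 1 to 4.

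Most pseudo-response regulators and their LNK co-activators rose, and more so than in the morning. Of 9 genes, 6 were called higher and none lower (4, 6, 5 and 3 without replicates 1 to 4), and 5 responded more in the evening than in the morning, where 1.58% of all genes did. PRR7, a daytime repressor of CCA1 and LHY, rose from 4.25, 6.40, 1.97 and 3.65 to 45.3, 41.5, 83.1 and 57.4 CPM and was highest in heat replicate 3. TOC1, the evening repressor, rose from an already higher level, 115, 119.5, 56.1 and 66.4 CPM, to 269, 283, 370.1 and 308 CPM. LNK1 (AT5G64170) went from 1.56, 1.18, 0.895 and 2.04 to 20.6, 16.5, 14.7 and 9.76 CPM and LNK4 (AT5G06980) rose by 2.38 ± 0.32. PRR3, named after its value was seen, rose by 0.93 ± 0.16 in the evening with a morning value of -0.95 ± 0.31. PRR9 reached at most 0.562 CPM in any of the 8 libraries and was not called.

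GIGANTEA (GI), which stabilizes the blue-light receptor ZTL and times flowering, rose from 0.722, 2.79, 0.358 and 0.742 to 13.6, 12.5, 10.5 and 9.02 CPM and gained 3.36 ± 0.38 more than in the morning (edgeR adjusted p = 0.000991). LUX (PCL1), the DNA-binding part of the evening complex, had 12.9, 19.2, 35.7 and 56.9 CPM in the controls, higher in replicates 3 and 4, and 159, 149.8, 152 and 140.3 CPM after heat. Its close relative BOA rose by 1.13 ± 0.19, and ELF4 had 26.8, 22.8, 18.1 and 23.3 CPM in the controls and 20.03, 21.9, 16.8 and 21.4 CPM after heat (edgeR adjusted p = 0.309). The CDF repressors of flowering moved with GI: CDF1 (AT5G62430) rose from 0.481, 0.786, 0.134 and 1.17 to 8.21, 6.93, 7.37 and 5.68 CPM, CDF2 by 2.51 ± 0.26, CDF3 by 1.86 ± 0.36 and the Dof gene AT1G69570 by 2.28 ± 0.37. All 4 rose more in the evening than in the morning, by 3.12 ± 0.43, 2.12 ± 0.26, 1.94 ± 0.29 and 1.93 ± 0.42 on the log2 scale. Their levels stayed low, and without replicates 1 to 4 in turn 3, 4, 4 and 2 of these passed.

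PIF4 and PIF5 (PIL6), bHLH factors that drive growth in the warm and the dark, both rose. PIF4 had 2.49, 3.54, 2.68 and 4.20 CPM in the controls and 22.4, 26.5, 21.8 and 21.5 CPM after heat, and PIL6 5.82, 7.83, 9.89 and 8.40 and 67.7, 82.2, 84.4 and 64.5 CPM, with no overlap for either. In the morning the log2 fold changes were 0.34 ± 0.16 for PIF4 and 0.00 ± 0.16 for PIL6, and the differences between times were 2.52 ± 0.25 and 3.25 ± 0.23 (edgeR adjusted p = 0.0003 and 1.99e-05). PIF1 (PIL5), which holds back germination and greening in the dark, rose by 0.96 ± 0.13. PHYB, the red-light receptor that senses warmth, fell by 0.52 ± 0.12, from 72.2, 63.5, 37.8 and 42.3 to 50.02, 38.2, 31.7 and 28.6 CPM with overlapping groups, a call lost without replicates 1, 2 or 4, without the block and in the fit of 16 libraries.

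Auxin genes known as targets of PIF4 were not called higher after the hour of warmth. YUC8, an auxin synthesis gene, was at 1.73, 1.14, 1.16 and 1.54 CPM and then 1.06, 0.510, 0.518 and 0.424 CPM (edgeR adjusted p = 0.0532), and the auxin-responsive IAA19 and IAA29 were not called. TAA1, the enzyme before YUC8 in the same route, fell from 9.47, 8.11, 10.9 and 7.85 to 4.23, 4.88, 4.09 and 3.08 CPM, and IAA2 rose by 0.62 ± 0.11. Only these 2 of 23 auxin genes were called. PIL1, a shade marker, fell by 2.30 ± 0.56 from levels under 1 CPM, a call lost without replicate 1, 2, 3 or 4.

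B-box and CONSTANS-like zinc fingers, which act in light signalling, held 8 of 27 called higher and none lower, and 5 of these genes rose more in the evening than in the morning (4, 6, 5 and 2 called without replicates 1 to 4). COL5 rose from 6.50, 14.9, 6.13 and 10.6 to 81.5, 107, 87.5 and 85.7 CPM, and its morning log2 fold change was 0.16 ± 0.23. STO (BBX24), a repressor of light responses, went from 10.1, 8.97, 6.04 and 11.0 to 60.1, 62.8, 53.8 and 52.6 CPM with a morning value of 0.15 ± 0.13.

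**Figure D2:**
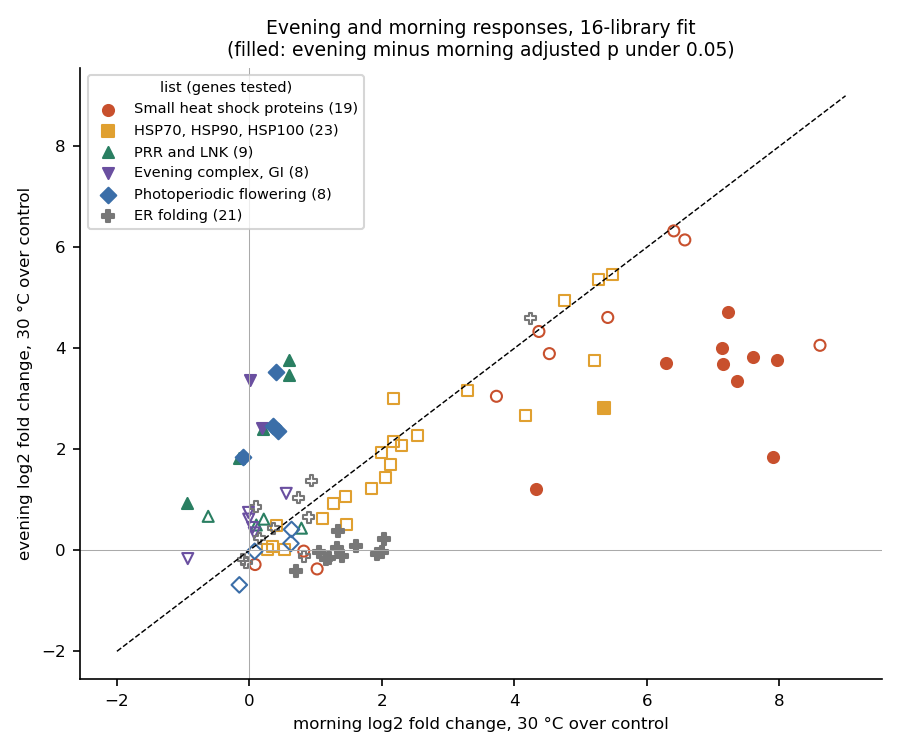
Log2 fold change of 30 °C over control in the evening (vertical) against the morning (horizontal) from the fit of 16 diel libraries, for the genes of 6 lists, with filled marks where the difference between times passed an adjusted p of 0.05. Small heat shock proteins with filled marks lie below the line of equal change, as HSP17.4 does with 7.96 in the morning, and the filled marks of pseudo-response regulators, LNK co-activators, the evening complex and flowering genes lie above it, as GI does with 0.01 in the morning.

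Most genes of the photosynthetic apparatus had small positive values, few of them called. Of 54 light-harvesting and photosystem genes, 49 had a positive log2 fold change (median 0.32; 10215 of all 21404 genes were positive), 9 were called higher and none lower (2, 3, 6 and 2 without replicates 1 to 4). The median was between 0.18 and 0.48 without single pairs, and upper-quartile normalization called 3 higher with a median of 0.19. Their summed level was 19243, 24595, 28311 and 27838 CPM in the controls and 31827, 39910.0, 27979 and 30278 CPM after heat, lower after heat in replicate 3 alone. PSAD-2, a subunit of photosystem I, rose from 84.8, 80.3, 67.5 and 66.8 to 189, 241, 166 and 191 CPM and LHCB4.2, a minor antenna protein, from 66.8, 65.9, 88.1 and 94.0 to 193, 259.7, 184 and 199 CPM. Both rose more in the evening than in the morning, by 1.38 ± 0.20 and 1.42 ± 0.29. CAO (CH1), which makes chlorophyll b, rose from 8.54, 9.29, 7.07 and 9.08 to 30.2, 30.7, 26.3 and 25.4 CPM, with a difference of 2.09 ± 0.18 from the morning (edgeR adjusted p = 0.000112), and CHLM of the same pathway by 0.66 ± 0.14. RBCS1A, the small subunit of Rubisco, was not called (0.11 ± 0.18), and ELIP2, an early light-induced protein, fell by 1.20 ± 0.27. The call of ELIP2 was lost without replicate 1, 2, 3 or 4, without the block and in the fit of 16 libraries.

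Most aquaporins of the plasma membrane and tonoplast, channels for water, rose. Of 16 plasma membrane and tonoplast aquaporins, 11 were called higher and none lower (median 0.81), and 8, 10, 9 and 2 were called without replicates 1 to 4. RD28 (PIP2;3) rose from 33.7, 47.3, 17.2 and 27.5 to 222, 272, 169.9 and 168 CPM, with every heat library above every control. The tonoplast channel GAMMA-TIP went from 411, 435, 340.3 and 323 to 943, 1453, 763 and 802 CPM and PIP2E rose by 1.12 ± 0.15. None of the 16 passed the test of a difference between evening and morning. The annotation family of aquaporins, 31 genes, held 10 higher and 3 lower (median 0.31), and its member NLM1 fell by 1.65 ± 0.31.

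Touch and cell wall genes gave a divided picture. TCH4 (XTH22), a xyloglucan endotransglucosylase that remodels cell walls, rose from 196, 451, 52.1 and 103 to 1002, 1151, 937 and 665 CPM, with controls that spread from 52.1 to 451 CPM. XTR6 rose by 3.19 ± 0.49 and XTH24 by 1.80 ± 0.31, and 7 of 27 genes of this family were called higher and 2 lower (6, 7, 6 and 0 higher without replicates 1 to 4). Expansins, which loosen walls, had 6 called lower and 2 higher of 22 (2, 5, 3 and 1 lower without replicates 1 to 4). EXPA15 fell from 32.9, 29.4, 67.5 and 66.0 to 7.37, 10.6, 10.5 and 16.6 CPM and EXPA4 from 53.3, 42.7, 81.7 and 87.6 to 19.3, 34.9, 21.8 and 27.5 CPM. In both the controls of replicates 3 and 4 were above those of replicates 1 and 2. Of 10 shoot alpha expansins 4 were called lower and none higher (2, 2, 2 and 1 without replicates 1 to 4).

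Rapid stress factors held several increases that depended on single pairs, and hormone lists held few calls. Of 14 C2H2 zinc finger and rapid ERF factors 5 were called higher and none lower (2, 5, 4 and 1 higher without replicates 1 to 4). ZAT6, a zinc finger factor, rose from 9.15, 9.54, 4.29 and 5.56 to 37.2, 47.0, 33.5 and 41.5 CPM, more than in the morning (2.07 ± 0.23, edgeR adjusted p = 0.000786), and ERF104 by 1.27 ± 0.28. ZAT12 (RHL41) and ZAT10 (STZ) were called higher with overlapping groups. WRKY33 rose by 0.85 ± 0.20, and 4 of 10 stress WRKY factors were called higher and 1 lower, with 1, 6, 1 and 0 higher without replicates 1 to 4. The salicylic acid list had no call among 13 genes in edgeR (2 at an unadjusted p under 0.05) and 2 higher in DESeq2, and the defence gene PR1 was at 0.0447 to 0.185 CPM. In the abscisic acid list ABF3 rose by 0.95 ± 0.13 and ABF2 fell by 0.73 ± 0.15, and NCED3, the rate-limiting enzyme of its synthesis, was not called. VSP1 and JAZ4 of the jasmonate pathway fell, by 1.53 ± 0.35 and 1.25 ± 0.34, and JAZ7 rose by 1.14 ± 0.28. These were the calls among 17 jasmonate genes, 2 lower (11.8%, against 8.24% of all genes) and 1 higher (5.88%, against 7.31%). The list held 0, 2, 1 and 0 lower and 0, 2, 0 and 0 higher without replicates 1 to 4. CPD of brassinosteroid synthesis rose by 0.76 ± 0.16.

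Sugar starvation genes, which report low carbon at night, differed widely among the controls. ASN1, the dark-induced asparagine synthetase, stood at 880.1, 1134, 30.1 and 149 CPM in PM controls 1 to 4 and at 1449, 1471, 1390.5 and 913 CPM after heat. Controls 3 and 4 were low, the other 6 libraries lay between 880.1 and 1471 CPM, and the test did not call the gene (log2 fold change 2.12 ± 0.85, edgeR adjusted p = 0.115). Summed over 10 genes of the list the levels were 3656, 4243, 687 and 1469 CPM in the controls and 4619, 4897, 4799 and 4189.5 CPM after heat. None was called in edgeR (5 had an unadjusted p under 0.05), while DESeq2 called 1 higher and 1 lower, and the median log2 fold change was 1.04, or 0.49 without replicate 3, 0.65 without the replicate block and 0.32 without the block and control 3. Of the starch breakdown genes BAM4, BAM1 and LDA were called higher, by 0.81 ± 0.19, 0.69 ± 0.18 and 0.53 ± 0.15, of which 0, 3, 0 and 0 passed without replicates 1 to 4.

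Among the decreases the flavonoid pathway stood out. Of 19 flavonoid and anthocyanin genes, 9 were called lower, 47.4% of the list against 8.24% of all genes, and none higher (median -1.32). FLS1, flavonol synthase, fell from 37.5, 15.2, 33.0 and 25.0 to 5.46, 7.95, 2.82 and 5.31 CPM (log2 fold change -2.37 ± 0.38), TT5 (CHI), chalcone isomerase, from 22.8, 10.1, 21.9 and 17.6 to 3.92, 4.96, 2.48 and 2.97 CPM, and F3H by 1.87 ± 0.27. PAL1, at the entry to phenylpropanoids, fell from 139.6, 61.3, 89.2 and 72.1 to 29.4, 28.1, 9.50 and 17.5 CPM and PAL2 by 1.06 ± 0.16. TT4 (CHS), chalcone synthase, fell by 1.32 ± 0.30 with overlapping groups. The control of replicate 1 was the highest and heat replicate 3 the lowest for FLS1, PAL1 and TT4, the same libraries in which the root marker sum was highest and lowest. The number of calls was 5, 11, 6 and 0 without replicates 1 to 4, and the median stayed between -1.60 and -1.17.

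Cell division genes fell from low levels. CYCB1;1, a mitotic cyclin, had 3.61, 2.79, 4.61 and 4.70 CPM in the controls and 1.96, 1.31, 1.09 and 1.01 CPM after heat, a log2 fold change of -1.54 ± 0.31. CYCB1;4 fell from 6.22, 5.25, 8.72 and 6.86 to 3.14, 2.55, 2.19 and 3.13 CPM and the cytokinesis kinesin HIK by 1.03 ± 0.21. Of 21 cell cycle genes 6 were called lower and none higher (median -0.58), of 12 DNA replication genes 4 and 0, and of 43 kinesins 16 and 0. CDT1A, which licenses origins, fell from 6.02, 5.40, 8.23 and 5.07 to 2.52, 2.33, 2.07 and 1.59 CPM and MCM2, part of the replicative helicase, by 0.85 ± 0.21, while MCM5 was not called (-0.51 ± 0.20, edgeR adjusted p = 0.111). Summed over the 21 cell cycle genes the level was 198, 184, 308 and 279 CPM in PM controls 1 to 4 and 185, 183, 183 and 200.5 CPM after heat. Controls 1 and 2 thus lay at the level of the heat libraries, and controls 3 and 4 above it. Without replicates 1 to 4 the calls were 3, 5, 5 and 0 in the cell cycle list, 1, 3, 2 and 0 in the DNA replication list and 3, 12, 4 and 0 among kinesins, and the medians of the cell cycle list and the kinesins stayed negative, between -0.71 and -0.36 and between -0.63 and -0.42. Histone AT5G10390 fell by 1.90 ± 0.26, one of 6 core histone genes called lower of 46 (3, 5, 2 and 0 without replicates 1 to 4). In RNA of mixed tissue, which the protocol calls aerial, fewer dividing cells and less RNA per cell cannot be told apart. The part of root material in these decreases was not tested either. TCP3 and TCP4, leaf growth factors that restrain division, fell as well, by 0.74 ± 0.12 and 0.69 ± 0.12.

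The 15 largest decreases among well-measured genes included enzymes of specialized metabolism and a transporter. SIAR1, an amino acid exporter, fell from 57.0, 21.6, 37.5 and 36.0 to 6.05, 4.88, 3.86 and 6.63 CPM (log2 fold change -2.79 ± 0.22, edgeR adjusted p = 0.00096), and the O-methyltransferase gene AT4G35160 from 17.5, 6.15, 17.4 and 18.8 to 1.32, 1.82, 1.32 and 2.76 CPM. The germin-like GLP9 stood at 32.1, 1.97, 4.47 and 2.47 CPM in the controls and 1.37, 1.02, 0.288 and 0.531 CPM after heat. The berberine-family oxidase gene AT1G26390 had the largest of them (-5.33 ± 1.33), but it rested on 1 library, at 56.7, 0.858, 0.134 and 0.185 CPM in the controls and 0.392, 0.364, 0.0576 and 0.106 CPM after heat, and without replicate 1 its log2 fold change was -1.09 (edgeR adjusted p = 0.287). GLP9 also depended on that library, with -2.26 and an adjusted p of 0.0695 without it. The GDSL lipase GLL22 and the carboxypeptidase-like scpl1 fell by 2.39 ± 0.35 and 2.74 ± 0.38.

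Several large families leaned downward, where 8.24% of all genes were called lower and 7.31% higher. Of 56 class III peroxidases, secreted enzymes of the cell wall, 16 were called lower (28.6%) and 1 higher (1.79%), with a median of -0.98. Their summed level, 2942, 1865, 2242 and 2328 CPM in the controls and 1876, 2010.1, 1421 and 1724 CPM after heat, was highest in control 1 and lowest in heat library 3, like the root marker sum. AT2G18980 fell from 24.5, 13.4, 26.2 and 22.1 to 9.58, 10.2, 4.38 and 9.07 CPM. Receptor-like kinases had 47 lower (19.3%) and 11 higher (4.53%) of 243. Among them FLS2, the flagellin receptor, fell from 8.95, 9.58, 19.4 and 14.5 to 3.73, 2.26, 3.57 and 3.34 CPM. UDP-glycosyltransferases had 28 lower (24.3%) and 7 higher (6.09%) of 115. Pectin-modifying enzymes had 21 (17.5%) and 5 (4.17%) of 120, and lipid transfer proteins 14 (19.4%) and 4 (5.56%) of 72. Without replicates 1 to 4 the peroxidases called lower numbered 1, 18, 9 and 1, and the receptor-like kinases 10, 52, 24 and 8 lower and 3, 17, 3 and 1 higher. The lower calls were 7, 25, 16 and 4 among UDP-glycosyltransferases, 7, 23, 6 and 0 among pectin-modifying enzymes and 1, 22, 6 and 0 among lipid transfer proteins. Aux/IAA proteins, a smaller family of repressors of auxin responses, did not lean downward in calls, with 1 lower and 2 higher of 20. The 1 called lower was IAA28, which fell from 20.3, 12.9, 50.1 and 44.5 to 10.2, 4.74, 5.59 and 10.7 CPM. The median root marker differed by -0.95 on the log2 scale, and the part of root material in these decreases was not tested.

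**Figure D3:**
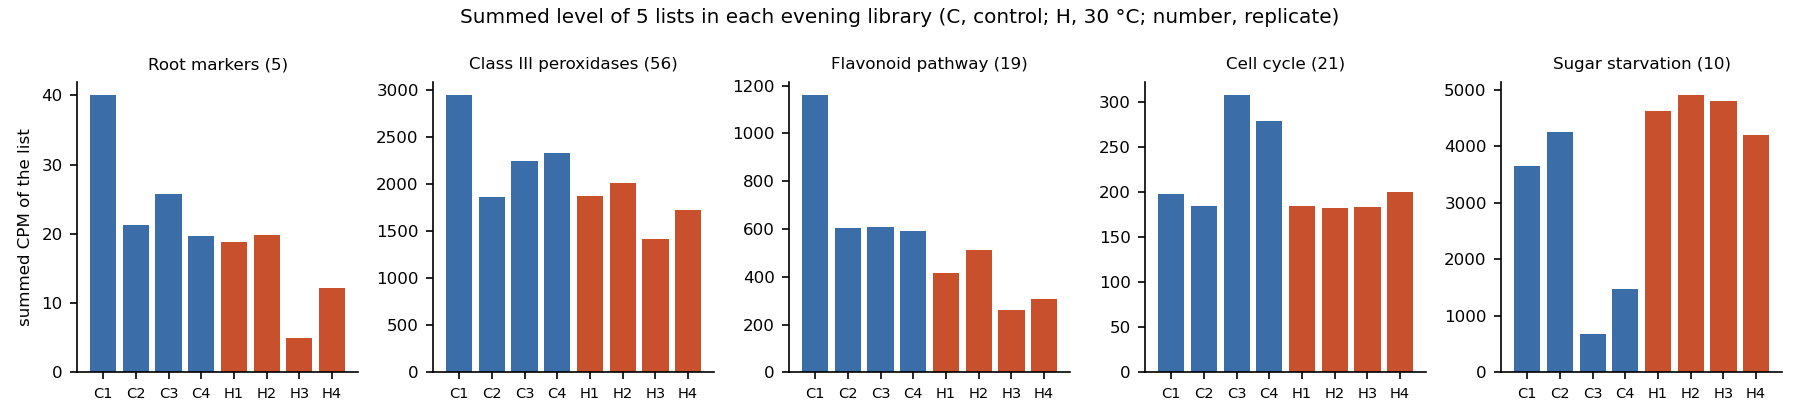
Summed CPM of 5 lists in each PM control (blue, C1 to C4) and PM heat (orange, H1 to H4) library, with the number of genes tested in brackets. Root markers sum to 40.0 CPM in control 1 and 4.95 CPM in heat library 3, and sugar starvation genes sum to 687 and 1469 CPM in controls 3 and 4 and to 3656 CPM or more in the other libraries.

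Other decreases were scattered. In the glucosinolate list MYB28, MYB34 and CYP79B2 fell, by 0.66 ± 0.17, 1.65 ± 0.41 and 1.04 ± 0.25, and MYB51 rose by 0.68 ± 0.16. For MYB34 the controls of replicates 3 and 4 were far above those of replicates 1 and 2, at 17.6, 12.5, 60.7 and 60.1 CPM. Of 23 genes of this list 4 were called lower (17.4%, against 8.24% of all genes) and 1 higher (4.35%, against 7.31%). The calls numbered 0, 4, 1 and 0 lower and 0, 1, 0 and 0 higher without replicates 1 to 4. NRT1.1, the nitrate transporter and sensor, fell by 0.93 ± 0.24. Pentatricopeptide repeat proteins, which edit and process organellar RNA, had 3 of 256 genes called higher and 7 lower, under the background in both directions. Among factor families MYB had 16 higher (12.0%) and 9 lower (6.77%) of 133. NAC had 3 higher (4.69%) and 8 lower (12.5%) of 64, and WRKY 6 higher (10.5%) and 10 lower (17.5%) of 57. Over all genes the shares were 7.31% higher and 8.24% lower. MYB genes numbered 5, 15, 7 and 0 higher and 0, 10, 1 and 1 lower without replicates 1 to 4. The lower calls were then 1, 8, 3 and 0 for NAC and 1, 13, 4 and 0 for WRKY. MATE and sugar transporters had 22 lower (17.5%) and 4 higher (3.17%) of 126 (7, 22, 15 and 3 lower without replicates 1 to 4). FAD5, a chloroplast desaturase, rose by 0.95 ± 0.15, more than in the morning (0.98 ± 0.19), while FAD8, which is regulated by temperature, was not called (-0.03 ± 0.19).

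**Figure D4:**
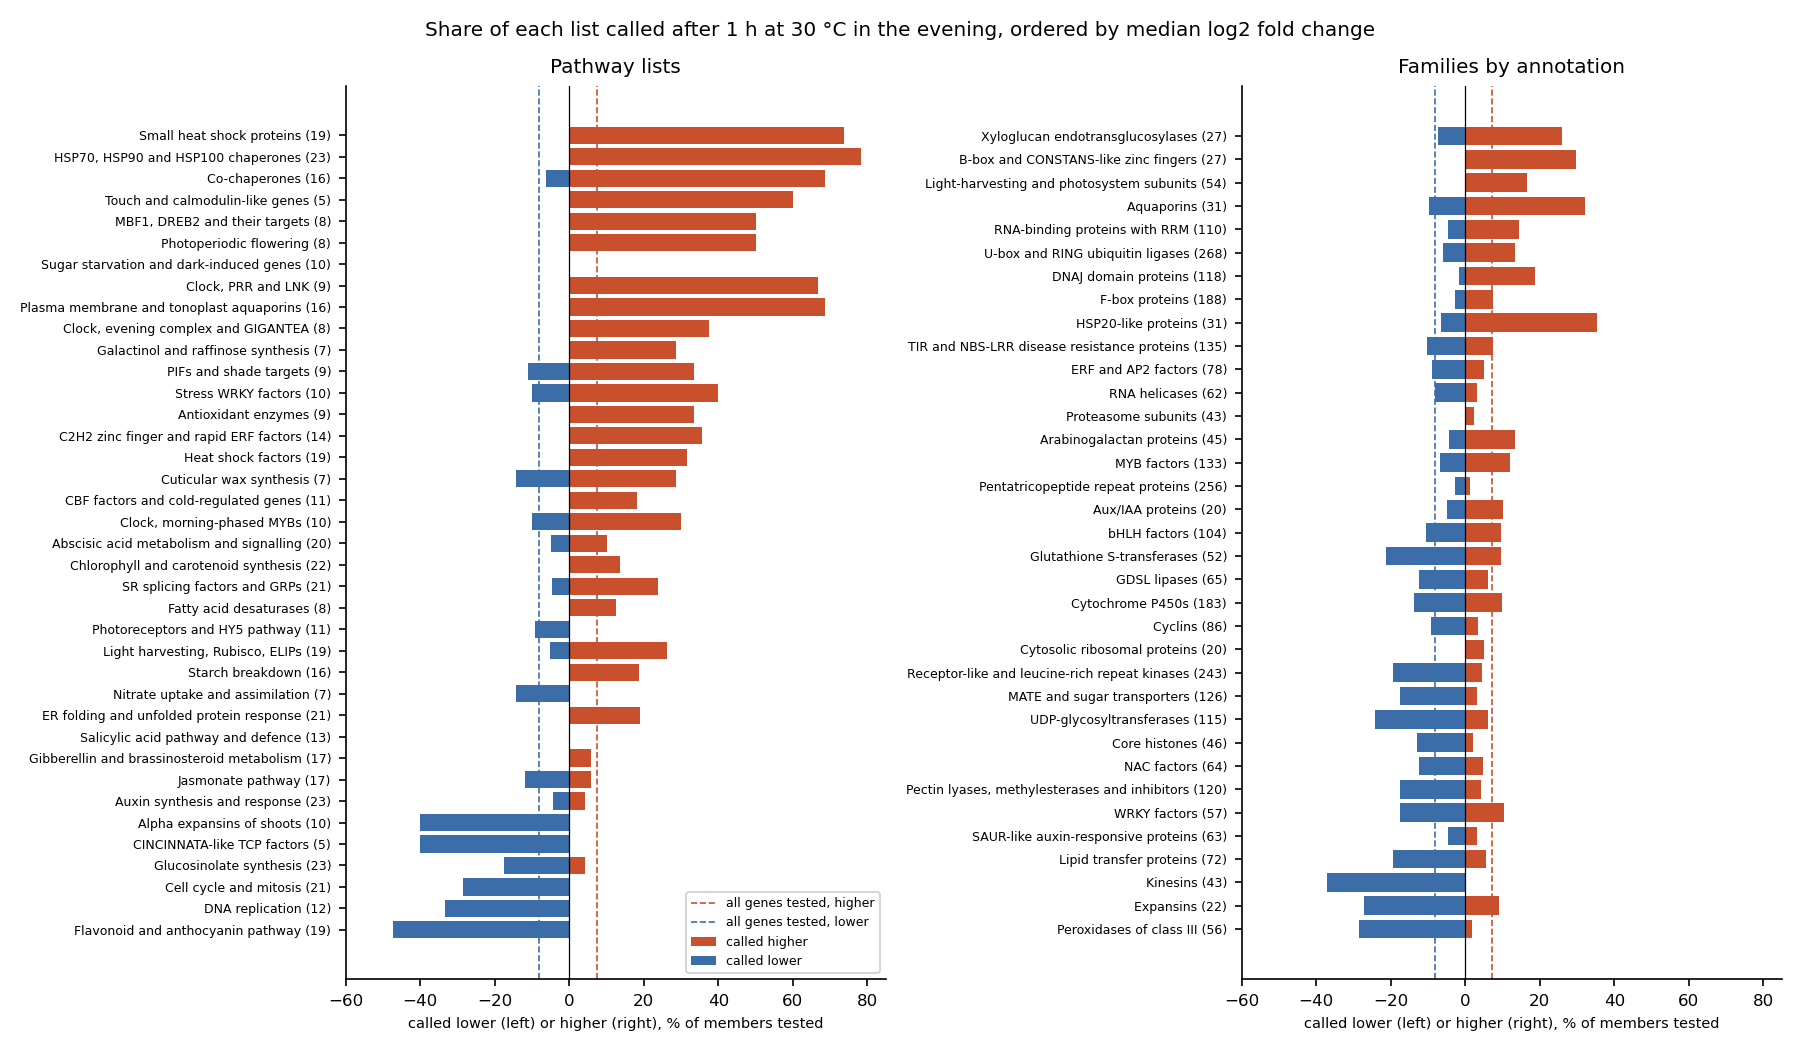
Share of tested members called higher (right, orange) or lower (left, blue) in each pathway list and annotation family with at least 5 genes tested, ordered by the median log2 fold change, with dashed lines at the shares over all genes, 7.31% and 8.24%. Chaperone lists and aquaporins reach furthest to the right, and flavonoid genes, with 47.4%, furthest to the left.

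Across all genes, 688 of 21404 (3.21%) responded differently in the evening and the morning, 339 with a larger log2 fold change in the evening and 349 with a smaller one. This count was 130 without replicate 1, 617 without replicate 2, 102 without replicate 3 and 19 without replicate 4, and 85 without the replicate block. In constant light, where 1 control and 1 heat library were made at subjective dusk and no test is possible, 81.9% of the genes called higher and 89.5% of those called lower had the same sign as in the evening, against 71% of all genes. With 1 CPM added to both values, the constant light log2 ratio was 1.59 for HSFA2, 2.21 for HSP101, 1.09 for EPR1, 1.66 for PRR7 and 1.91 for PIL6. It was -0.19 for GI, -0.99 for CDF1 and -2.81 for FLS1. In this pair 20.2% of all genes lay above 0.5 and 25.1% below -0.5.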

How the data were processed

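RNA was measured in 20 Arabidopsis seedling libraries, of which 8 enter the main comparison. The deposited counts, whole reads for each gene, were made by the authors with TopHat2 2.1.0 on TAIR10 and HTSeq 0.6.0, counting the reverse strand, from poly(A)-selected libraries. A gene was tested where any of the 16 diel libraries had 10 or more counts, which kept 21404 of 33601. PM heat was tested against PM control with edgeR 4.0.16 (R 4.3.3) quasi-likelihood fits with TMM scaling and the replicate number as a block. Standard errors are the log2 fold change divided by the square root of the F statistic. Evening and morning responses were compared as an interaction over 16 libraries at an adjusted p under 0.05, with no fold limit. The replicate number was used as a pairing because the comparison was defined with it as a block. Deviations of same-numbered PM control and PM heat libraries from their group means correlated at 0.389, 0.354, 0.126 and 0.668 over 14824 genes (Pearson's r across genes, which are not independent replicates). Differently numbered libraries also correlated, control 2 with heat 1 at 0.427 and control 3 with heat 4 at 0.533, so the numbers separate replicates 1 and 2 from 3 and 4 more than single pairs.

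The members of lists, the lists and the rules were chosen with earlier results of these data known. Families were taken from the words of the RefSeq annotation. Genes were named where they were called and among the 15 largest changes in a direction (averaging 5 CPM or more, 1 sign in all 4 pairs), the 4 smallest p of a list or the 3 largest changes of a family, or were marked in the lists for their known roles whatever their result. AT1G53540, HSA32, HSC70-1, HSFA3, AT-HSFA7B, HSP17.4, PRR3 and SHV2 were named outside this rule, after their values were seen. Promoters are from RefSeq TAIR10.1. Alternatives were DESeq2 1.42.0, other scaling and filters, fits without the block and fits without single libraries. Tables and figures were made with Python 3.11.15, pandas 2.3.3 and matplotlib 3.10.9. The edgeR steps for the evening comparison and for its difference from the morning were tested on simulated data, and DESeq2 was not.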

Additional observations from a re-analysis of the deposited data

Results flagged for a closer look

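In 22 of 294 groups of 4 libraries (7.48%), over the 147 genes named, 1 library stood far from the other 3, by a gap that chance alone gives in about 1 in 20 groups. Among the PM controls the library that stood apart was higher for GI in replicate 2 (2.79 CPM, others 0.358 to 0.742 CPM), AT1G26390 in replicate 1 (56.7 CPM, others 0.134 to 0.858 CPM), STZ in replicate 2 (21.5 CPM, others 5.59 to 8.06 CPM), AT1G53540 in replicate 1 (84.4 CPM, others 3.89 to 17.6 CPM), DREB2C in replicate 2 (16.2 CPM, others 0.268 to 1.36 CPM) and TCP4 in replicate 3 (52.0 CPM, others 48.8 to 49.2 CPM). It was also higher for IAA19 in replicate 3 (5.32 CPM, others 1.56 to 1.98 CPM), HSP17.4 in replicate 1 (82.5 CPM, others 5.59 to 17.6 CPM), PAL2 in replicate 1 (113 CPM, others 60.8 to 67.0 CPM), GLP9 in replicate 1 (32.0 CPM, others 1.97 to 4.47 CPM), XTR6 in replicate 2 (95.6 CPM, others 9.88 to 20.4 CPM), HSFA3 in replicate 2 (17.0 CPM, others 5.59 to 6.98 CPM), FAD8 in replicate 2 (91.8 CPM, others 53.6 to 59.7 CPM) and SHV2 in replicate 1 (3.97 CPM, others 1.57 to 1.73 CPM). It was lower for SGT1A in replicate 3 (38.3 CPM, others 45.5 to 46.8 CPM) and AT4G35160 in replicate 2 (6.15 CPM, others 17.4 to 18.9 CPM). Control 2 was the one in 7 of these groups, control 1 in 6, control 3 in 3 and control 4 in none. Among the PM heat libraries the one that stood apart was higher for PIF4 in replicate 2 (26.5 CPM, others 21.5 to 22.4 CPM), PIL1 in replicate 4 (0.212 CPM, others 0.0576 to 0.0840 CPM), YUC8 in replicate 1 (1.06 CPM, others 0.424 to 0.518 CPM) and AT5G06980 in replicate 3 (7.89 CPM, others 4.01 to 4.51 CPM), and lower for ASN1 in replicate 4 (913 CPM, others 1390.0 to 1471 CPM) and XTR6 in replicate 4 (128 CPM, others 252 to 272 CPM).

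The difference of the heat response between evening and morning, as a log2 fold change, passed an edgeR adjusted p of 0.05 for 40 of the genes named. In heat shock and folding genes the evening response was smaller, by a difference of -4.29 for APX2, -6.07 for AT1G53540, -2.004 for BIP2, -2.54 for HSA32, -4.19 for HSP17.4, -2.51 for HSP17.6A, -4.01 for HSP21 and -0.98 for SR30. The value in the evening was also below that of the morning for EXPA15 (-1.20), F3H (-1.40) and RVE8 (-1.91). Among clock and flowering genes it was larger, by 1.93 for AT1G69570, 2.20 for AT5G06980, 2.88 for AT5G64170, 3.12 for CDF1, 2.12 for CDF2, 1.94 for CDF3, 3.72 for EPR1, 3.36 for GI, 2.24 for PCL1, 1.89 for PRR3, 3.18 for PRR7, 1.89 for RVE1 and 1.98 for TOC1. Among genes of light signalling and the chloroplast it was larger by 2.09 for CH1, 3.12 for COL5, 0.98 for FAD5, 1.42 for LHCB4.2, 2.52 for PIF4, 3.25 for PIL6, 1.38 for PSAD-2 and 2.54 for STO. Among stress and other genes it was larger by 1.06 for ABF3, 1.46 for CAT3, 2.01 for ERF104, 0.88 for GSTU5, 2.88 for JAZ7, 2.22 for TCH4, 1.30 for WRKY33 and 2.06 for ZAT6. The largest evening excess was that of EPR1, with 5.61 in the evening and 1.89 in the morning in the fit of 16 libraries, and the largest morning excess that of AT1G53540, with 1.84 and 7.91.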

How the results depend on the processing

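The count of 3327 genes called in the evening (1564 higher, 1763 lower) ranged from 303 to 3458 when 1 replicate pair was left out, with 218 to 1666 higher and 85 to 1792 lower. Without the replicate block it was 2530 (1106 higher, 1424 lower), and with 1 library left out as well it ranged from 591 to 4098, with 362 to 1778 higher and 229 to 2320 lower. The fit of 16 libraries in 4 groups called 5671 (2461 higher, 3210 lower), and glmTreat against the fold limit 299 (231 higher, 68 lower). Upper-quartile normalization gave 1012 higher, and replicates 1 and 2 against 3 and 4 as a batch term gave 2657 lower. RLE size factors, DESeq2 with the block (4504), the other filters and no fold limit kept all 3 counts within 1.5 times. The 688 genes whose response differed between evening and morning (339 larger, 349 smaller in the evening) numbered 1675 with DESeq2 (884 and 791), 85 without the replicate block (50 and 35), and 19 to 617 without 1 replicate pair (15 to 311 and 4 to 306). For the 147 genes named, 2687 of 3229 gene values under an alternative stayed on their side of the threshold, 523 no longer passed and 19 newly passed, and none of the called values changed sign. Leaving out replicate 4 and glmTreat each lost 72 of these calls, the most of any setting. The causes were not tested. Of 3256 list counts, 1962 stayed within 1.5 times. In simulated evening data 67 of 100 genes changed by 1 on the log2 scale and 97 of 100 changed by 2 were recovered, with 11 false calls over 21404 genes. The simulated counts were independent draws in which control and heat of 1 number shared their replicate effect. Changes were placed only in well-counted genes. In the data differently numbered libraries also correlated, so the false calls do not cover the dependence on single pairs.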
